A study of Mus musculus with 9 samples.

Results

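Sarcoplasmic reticulum calcium cycling genes were followed across 9 mouse hearts of 3 genotypes. They are 10 genes, Ryr2, Atp2a2, Pln, Casq2, Slc8a1, Trdn, Camk2d, Jph2, Hrc and Asph, chosen by name as the probe sets whose only gene symbol in the array's annotation is 1 of these. That gave 11 probe sets of 33793 on the array, 1 for each gene and 2 for Asph, and all 11 were bright enough to be among the 13650 probe sets tested. Hearts came from mice 2 months old. The groups were wild type, Col4a3-/- and Col4a3-/-OPN-/-, with 3 hearts, 1 array each, per genotype. Col4a3 encodes a basement membrane collagen chain, and mice without it model the inherited kidney disease Alport syndrome. Col4a3-/-OPN-/- mice lack the same collagen chain and also osteopontin, a secreted integrin-binding protein; osteopontin loss on a wild type background was not analysed here. The labels give heart as the tissue and name no strain, sex, litter or heart chamber.

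At each beat, calcium entering a cardiomyocyte opens the ryanodine receptor, a channel that releases the calcium stored in the sarcoplasmic reticulum, and the muscle contracts. The calcium pump SERCA2, held back by phospholamban, then returns calcium to the store, while the sodium-calcium exchanger moves the rest out of the cell, and the muscle relaxes. Slowed return of calcium is a known feature of impaired relaxation, which is why these genes are often read in heart failure with preserved ejection fraction, the condition named in the study's title.

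Values are log2 signals from robust multi-array averaging (RMA), so a step of 1 is a doubling of signal. Signals of different probe sets are not on a common scale, so the level of 1 probe set against another says nothing of relative RNA amounts. Differences were tested with limma (moderated tests in 1 fit of all 9 arrays), and p-values were adjusted by the Benjamini-Hochberg method over all 13650 probe sets, with 0.05 as the threshold. SD is over the 3 hearts of a group, SE and 95% intervals are from the fit. In bulk heart RNA, fewer cardiomyocytes and less RNA per cardiomyocyte cannot be told apart.

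Some hearts stood apart in their cell type markers. All 14 cardiomyocyte markers were bright, and their mean signal lay between 11.5 and 11.7 in 8 hearts but at 11.1 in Col4a3-/- replicate 3, the array least like the others (mean Pearson's r of 0.943 with the other arrays, against 0.965 to 0.977). Over 13 atrial markers the mean was 7.55 and 7.67 in Col4a3-/- replicates 1 and 3 and between 8.498 and 8.80 in the other 7 hearts. Col4a3-/- replicates 1 and 3 and Col4a3-/-OPN-/- replicate 2 had high Xist (7.59 to 8.56) and low Y-linked signal, the pattern of female hearts, and no wild type heart did. Col4a3-/- replicate 2 had a mean of 8.34 over 8 lung and fat markers, against 5.52 to 6.70 elsewhere. Single markers of this list also differed among the other hearts. Scgb1a1 was at 12.2 in Col4a3-/- replicate 2, at 9.81 and 9.52 in Col4a3-/-OPN-/- replicates 1 and 3, and at 6.10 or lower in the rest. Ucp1 was at 8.29 to 9.20 in wild type hearts, 6.81 to 8.24 in Col4a3-/-OPN-/- hearts, and 4.79 and 5.03 in Col4a3-/- replicates 1 and 3. In Col4a3-/- replicate 2 Ucp1 was at 11.06. The mean of 12 smooth muscle and pericyte markers was lower in all 3 Col4a3-/- hearts (7.70 to 7.99) than in the other 6 (8.42 to 8.48); 11 of 12 were below wild type, with a median difference of -0.54, and 1 was called by limma in Col4a3-/-OPN-/- against Col4a3-/- (adjusted p = 0.0104). Over 9 fibroblast markers the mean was 7.97 in Col4a3-/- replicate 3 and 8.79 to 9.43 in the other 8 hearts, though Dcn, Pdgfra and Tcf21 were not low there. Skeletal muscle markers averaged near the array's median in every heart.

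None of the 10 genes differed between genotypes at the threshold. The pump gene Atp2a2 and its inhibitor Pln were the steadiest, within 0.14 log2 units over all 9 hearts. The store's buffer gene Casq2 had the widest range, with its lowest value in Col4a3-/- replicate 3. The lowest genotype mean was that of Col4a3-/- hearts for 9 of 10 genes, Hrc being the exception. The plot of the 10 genes by heart shows these values.

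**Figure D1:**
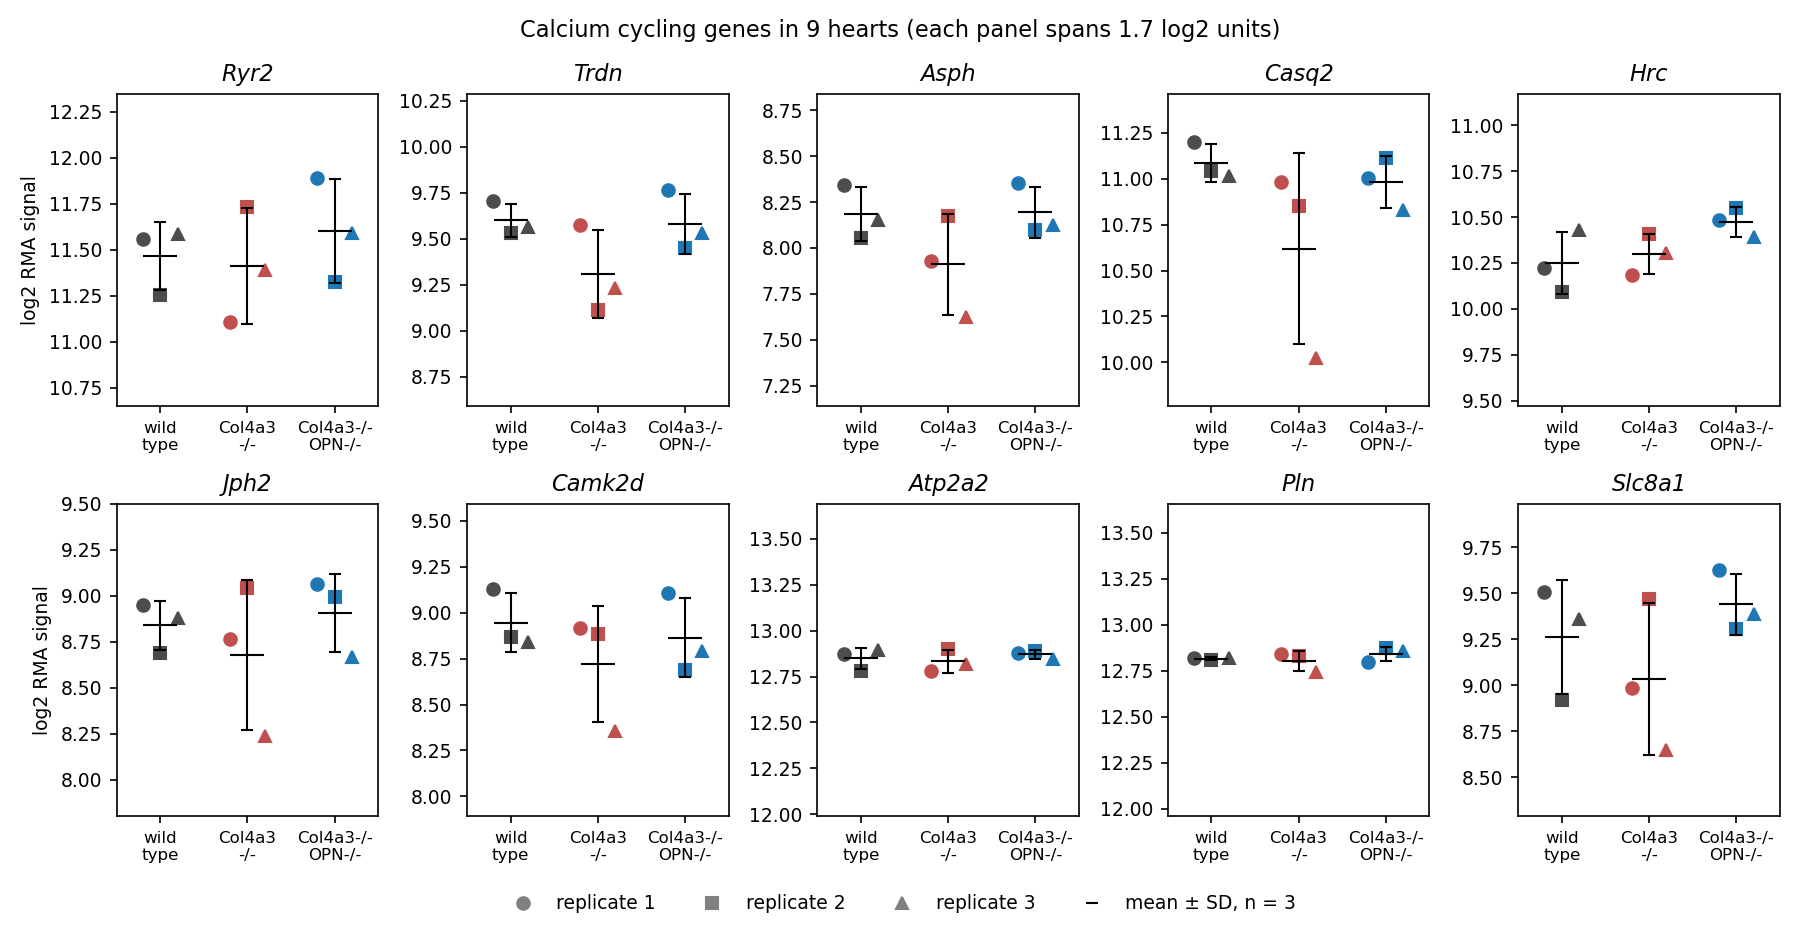
Log2 RMA signal (vertical axes, each spanning 1.7 units) of 10 calcium cycling genes in wild type, Col4a3-/- and Col4a3-/-OPN-/- hearts; symbols mark replicates 1 to 3, and black lines give the mean ± SD (n = 3). Atp2a2 and Pln are nearly flat, while Casq2, Jph2, Camk2d, Slc8a1 and Asph have their lowest heart in Col4a3-/- replicate 3.

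Upstream sequences are shown for 3 of the genes that behaved differently across hearts: Casq2 and Slc8a1, which had the widest ranges (1.18 and 0.98 log2 units), and Pln, which had 1 of the narrowest (0.13). They are the 250 bases before the annotated start in RefSeq, build GRCm38.p6, read 5′ to 3′ on the gene's own strand. Capitals mark matches, on either strand, to 5 motifs of heart and muscle factors. MEF2 and CArG were searched by their consensus. For GATA factors the letters searched were AGATAA. For the MCAT element they were CATTCC. For the E-box they were CAGCTG, which reads the same on both strands.
Casq2, chr3:102086165-102086414, plus strand: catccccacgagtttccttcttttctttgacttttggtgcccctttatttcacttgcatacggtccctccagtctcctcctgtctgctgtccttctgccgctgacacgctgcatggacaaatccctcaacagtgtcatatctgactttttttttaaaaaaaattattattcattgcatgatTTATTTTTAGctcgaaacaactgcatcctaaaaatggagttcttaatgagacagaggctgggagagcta
Slc8a1, chr17:81738388-81738637, minus strand: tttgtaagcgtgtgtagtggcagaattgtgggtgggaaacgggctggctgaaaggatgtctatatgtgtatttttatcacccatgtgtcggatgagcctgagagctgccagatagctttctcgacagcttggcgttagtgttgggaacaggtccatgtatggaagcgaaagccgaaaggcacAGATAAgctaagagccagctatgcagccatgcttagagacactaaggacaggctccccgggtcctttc
Pln, chr10:53337436-53337685, plus strand: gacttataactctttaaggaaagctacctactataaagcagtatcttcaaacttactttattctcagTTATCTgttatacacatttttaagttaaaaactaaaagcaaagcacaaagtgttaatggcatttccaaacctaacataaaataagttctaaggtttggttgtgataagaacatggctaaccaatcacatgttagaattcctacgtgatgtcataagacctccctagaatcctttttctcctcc
Casq2 holds a MEF2 match that begins 69 bases before the start, and Slc8a1 and Pln each hold a GATA match, 68 and 183 bases before it, that of Pln on the other strand (TTATCT as printed). No promoter held more than 1 match. The table held 8 promoters for 7 of the 10 genes, 2 of them of Jph2. MEF2 matched 1 of these 8, against 2.92% of 32851 promoters; GATA matched 2, against 9.99%; the E-box matched 3, against 13%, those of Hrc and both overlapping Jph2 windows, which share 1 site. CArG and MCAT matched 0 of the 8, against 1.47% and 12.6%. These are letter matches only, and the arrays measured no binding.

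Ryr2 encodes the cardiac ryanodine receptor, the release channel itself. In the order of replicate numbers, which holds for every gene here, the wild type hearts had a log2 signal of 11.56, 11.26 and 11.59, the Col4a3-/- hearts 11.11, 11.73 and 11.39, and the Col4a3-/-OPN-/- hearts 11.89, 11.33 and 11.59. All 3 genotypes overlapped, and the low hearts, Col4a3-/- replicate 1, wild type replicate 2 and Col4a3-/-OPN-/- replicate 2, came from all of them. The log2 difference was -0.06 (95% interval -0.45 to 0.33) in Col4a3-/- against wild type and 0.19 (-0.20 to 0.58) in Col4a3-/-OPN-/- against Col4a3-/-. Ttn, the gene of the giant sarcomere protein titin and likewise a very long transcript, was also low in Col4a3-/- replicate 1 (10.6) and wild type replicate 2 (10.8), and was at 10.7 in Col4a3-/- replicate 3, where Ryr2 was not among its 3 lowest. In Col4a3-/-OPN-/- replicate 2, which was low in Ryr2, Ttn was at 11.05, above those 3 hearts. The part of RNA quality in this was not tested.

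Triadin, encoded by Trdn, anchors the calcium buffer to the release channel. Trdn was at 9.70, 9.53 and 9.56 in wild type hearts, 9.58, 9.11 and 9.23 in Col4a3-/- hearts, and 9.77, 9.45 and 9.53 in Col4a3-/-OPN-/- hearts. Col4a3-/- replicates 2 and 3 lay below every other heart, and replicate 1 lay among the wild type values. The difference of Col4a3-/- from wild type was -0.29 (SE 0.14, limma adjusted p = 0.626), and that of Col4a3-/-OPN-/- from Col4a3-/- was 0.27 (SE 0.14, adjusted p = 0.439).

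Asph encodes several proteins from 1 gene, among them junctin, a partner of triadin at the release channel, and an aspartate hydroxylase; the annotation does not say which of them a probe set reads. The brighter probe set, which stands for the gene, was at 8.35, 8.06 and 8.15 in wild type, 7.93, 8.18 and 7.63 in Col4a3-/- and 8.35, 8.10 and 8.13 in Col4a3-/-OPN-/- hearts. It overlapped among all genotypes, with a difference of -0.27 (95% interval -0.63 to 0.08) in Col4a3-/- against wild type. The dimmer probe set had another order, at 5.97, 5.66 and 5.56 in wild type, 6.06, 5.69 and 5.72 in Col4a3-/- and 5.22, 5.36 and 5.37 in Col4a3-/-OPN-/- hearts.

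All 3 Col4a3-/-OPN-/- hearts lay below all 6 others at this dimmer Asph probe set, the only member probe set at which they stood clear of both other genotypes. Its mean was 5.32 ± 0.09 (SD, n = 3) in Col4a3-/-OPN-/- hearts, against 5.82 ± 0.20 in Col4a3-/- and 5.73 ± 0.21 in wild type hearts. The log2 difference was -0.51 (SE 0.14) from Col4a3-/-, with an unadjusted p of 0.0035 and a limma adjusted p = 0.193, and -0.41 (SE 0.14) from wild type, with an unadjusted p of 0.012 and an adjusted p = 0.999. Neither passed over all probe sets. Groups without overlap, in either direction, were seen at 16.5% of all probe sets against Col4a3-/- and at 13.2% against wild type. The share with both was not computed. At 5.32 the signal was close to 5.21, the median over all probe sets, above which a probe set's mean had to lie to be tested. Both log2 differences kept their sign in all 21 other settings that tested this probe set, between -0.57 and -0.34 and between -0.49 and -0.29. Several of these settings, such as other filters or moderation, cannot change a log2 difference.

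**Figure D2:**
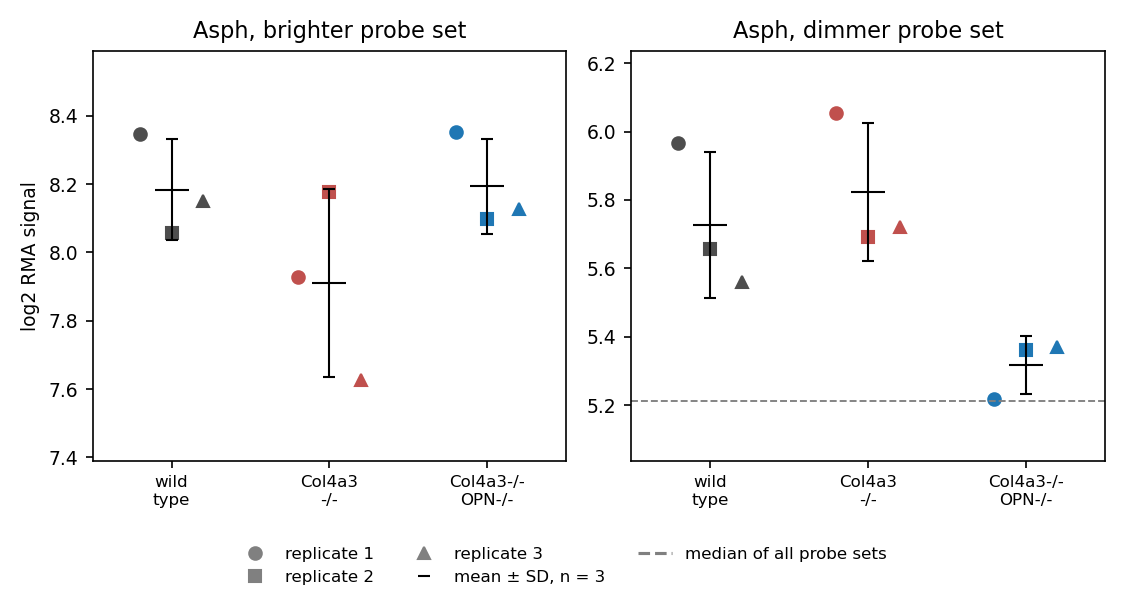
Log2 RMA signal of the brighter (left) and dimmer (right) probe set of Asph by genotype; symbols mark replicates 1 to 3, black lines the mean ± SD (n = 3), and the dashed line the median over all probe sets (5.21). At the dimmer probe set the 3 Col4a3-/-OPN-/- hearts lie between 5.22 and 5.37, below the other 6 hearts; at the brighter one the genotypes overlap.

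Calsequestrin 2, encoded by Casq2, binds most of the calcium inside the store. Casq2 was at 11.20, 11.04 and 11.01 in wild type hearts, at 10.98, 10.85 and 10.02 in Col4a3-/- hearts and at 11.005, 11.11 and 10.83 in Col4a3-/-OPN-/- hearts. Every Col4a3-/- heart was below every wild type heart, but replicate 1 was just under the lowest wild type heart, while replicate 3 was far below all others. The mean was 10.6 ± 0.52 (SD, n = 3) in Col4a3-/- and 11.1 ± 0.10 in wild type hearts, a log2 difference of -0.47 (SE 0.21, 95% interval -0.93 to -0.01, unadjusted p = 0.0475, limma adjusted p = 0.590). The SE pools the spread of all genotypes, so it does not carry the full spread of the Col4a3-/- hearts (SD 0.52). Under that pooling the interval only just excludes 0. Without Col4a3-/- replicate 3 the difference was -0.17, and it stayed below 0 with each array left out in turn, down to -0.65.

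Hrc, the histidine-rich calcium-binding protein of the store, regulates both uptake and release. Its signal was 10.22, 10.09 and 10.43 in wild type, 10.19, 10.41 and 10.30 in Col4a3-/- and 10.48, 10.55 and 10.39 in Col4a3-/-OPN-/- hearts. It was the only one of the 10 genes with a Col4a3-/- mean (10.3) above the wild type mean (10.2), and the only one that was not low in Col4a3-/- replicate 3 against the wild type mean. The Col4a3-/-OPN-/- mean of 10.5 exceeded wild type by 0.22 (95% interval -0.03 to 0.48, unadjusted p = 0.0779, limma adjusted p = 0.999), with overlap through wild type replicate 3.

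Junctophilin 2, from Jph2, holds the store's membrane close to the surface membrane so that calcium entry can trigger release. Jph2 was at 8.95, 8.69 and 8.88 in wild type, 8.76, 9.04 and 8.24 in Col4a3-/- and 9.07, 8.99 and 8.66 in Col4a3-/-OPN-/- hearts. Col4a3-/- replicate 2 was among the highest hearts and replicate 3 the lowest, so the genotype's SD was 0.41 against 0.14 in wild type hearts. The difference from wild type was -0.16 with all arrays (95% interval -0.59 to 0.28) and 0.06 without replicate 3.

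Camk2d encodes the delta form of CaM kinase II, which phosphorylates the release channel and phospholamban. It was at 9.13, 8.87 and 8.84 in wild type, 8.92, 8.88 and 8.36 in Col4a3-/- and 9.10, 8.69 and 8.79 in Col4a3-/-OPN-/- hearts. Apart from Col4a3-/- replicate 3, the 3 genotypes lay in the same range. The difference of Col4a3-/- from wild type was -0.23 (95% interval -0.62 to 0.17), and -0.04 without that heart.

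On the uptake side, Atp2a2, the gene of SERCA2, hardly varied. Its signal was 12.87, 12.78 and 12.89 in wild type, 12.78, 12.90 and 12.82 in Col4a3-/- and 12.88, 12.89 and 12.85 in Col4a3-/-OPN-/- hearts. The interval of the Col4a3-/- difference from wild type (-0.16 to 0.13) runs from a signal 10.4% lower to one 9.28% higher, and that of Col4a3-/-OPN-/- from Col4a3-/- from 7.06% lower to 13.4% higher. Pln, the gene of phospholamban, was at 12.82, 12.81 and 12.82 in wild type, 12.84, 12.83 and 12.74 in Col4a3-/- and 12.80, 12.87 and 12.86 in Col4a3-/-OPN-/- hearts. Its differences were -0.01 (95% interval -0.15 to 0.13), 0.04 (-0.10 to 0.17) and 0.03 (-0.11 to 0.16) for Col4a3-/- against wild type, Col4a3-/-OPN-/- against Col4a3-/- and Col4a3-/-OPN-/- against wild type.

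The difference Pln minus Atp2a2 within each heart, which is read only between genotypes, was -0.03 ± 0.05 (SD, n = 3) in wild type, -0.03 ± 0.08 in Col4a3-/- and -0.03 ± 0.05 in Col4a3-/-OPN-/- hearts. The genotype means differed by at most 0.0043, and each of the 3 comparisons had p = 1 in an exact two-sided permutation test. With 3 hearts against 3 the smallest p that test can give is 0.1. Only 0.0592% and 0.0799% of probe sets were brighter than those of Atp2a2 and Pln. Whether signals so near the top of the array are compressed was not tested.

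Slc8a1 encodes the sodium-calcium exchanger NCX1, the main route of calcium out of the cardiomyocyte. It was at 9.51, 8.92 and 9.36 in wild type, 8.99, 9.47 and 8.65 in Col4a3-/- and 9.63, 9.31 and 9.39 in Col4a3-/-OPN-/- hearts. Wild type replicate 2 was lower than Col4a3-/- replicates 1 and 2, so the genotypes overlapped. The difference between Col4a3-/-OPN-/- and Col4a3-/- hearts was 0.41 (SE 0.21, 95% interval -0.06 to 0.88, limma adjusted p = 0.436), the largest of the 10 genes in that comparison, and was 0.21 without Col4a3-/- replicate 3.

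**Figure D3:**
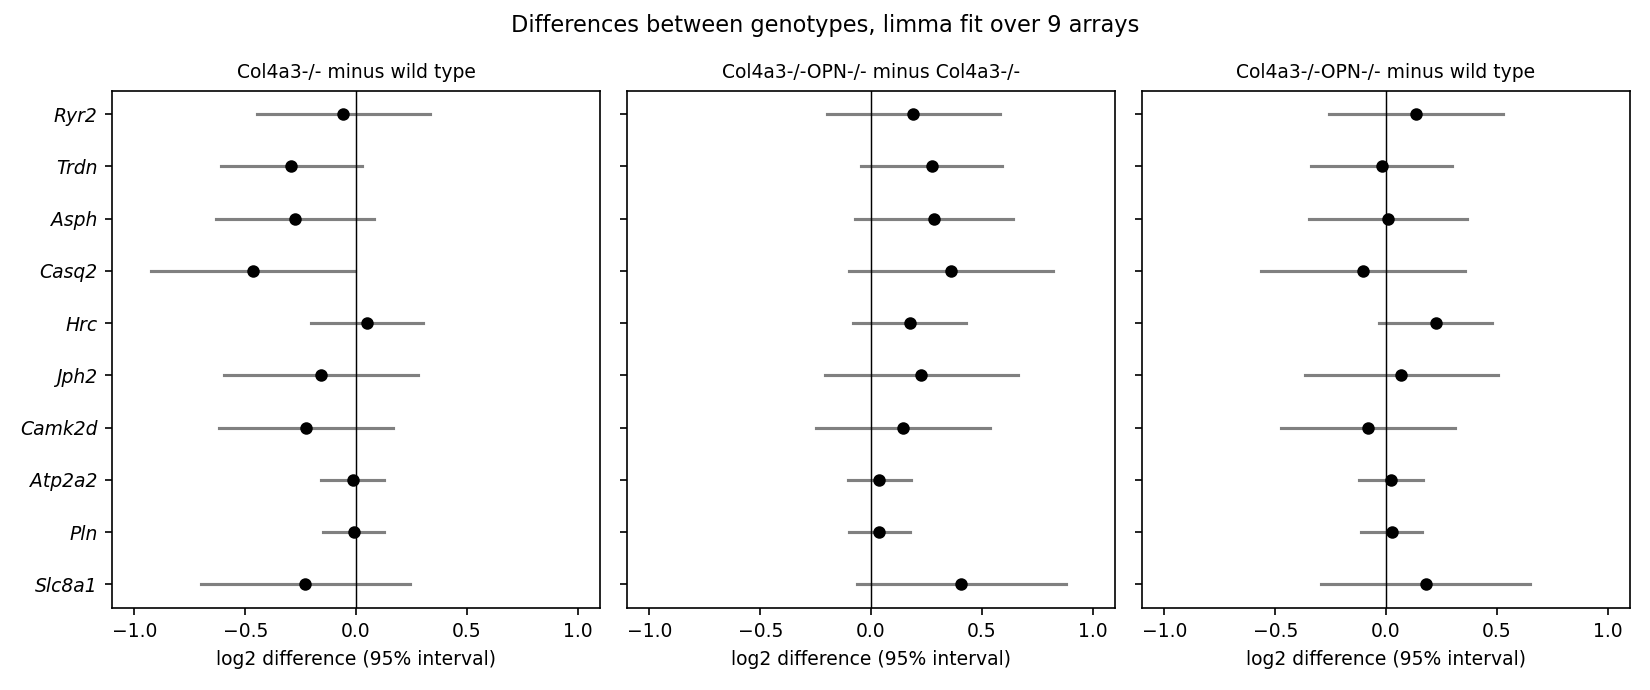
Log2 differences (points) with 95% intervals (lines) of the 10 genes in the 3 comparisons, from the limma fit over all 9 arrays; the vertical line marks no difference. Only the interval of Casq2 in Col4a3-/- against wild type lies to 1 side of 0 (-0.93 to -0.01), and no gene passed after adjustment.

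Comparing Col4a3-/- with wild type hearts asks what goes with the loss of the collagen chain. Col4a3-/- replicates 1 and 3 also had the female pattern of Xist and low atrial markers, and no wild type heart had either. In those hearts genotype cannot be told apart from sex or atrial content. Limma called 0 of the 10 genes, as it called 0 of 13650 probe sets (0%). Casq2 alone had an unadjusted p under 0.05 (1 of 10, against 8.35% of probe sets) and alone separated the groups without overlap (1 of 10, against 12.5%). The log2 difference was below 0 for 9 of 10 genes, against 55% of all probe sets, and above 0 for Hrc, against 45%, with a median of -0.19 for the genes and -0.02 for all. All 10 intervals lay within 1 log2 unit of 0 and 4 within 0.5. The median was -0.04 without Col4a3-/- replicate 3, and -0.10 without wild type replicate 1, where the members' deviations were the highest of the wild type hearts.

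In Col4a3-/-OPN-/- against Col4a3-/- hearts, which asks what the added loss of osteopontin goes with, limma again called 0 of the 10 genes, against 0.044% of probe sets (6). No gene had an unadjusted p under 0.05 or groups without overlap, against 13.6% and 16.5% of probe sets; the dimmer Asph probe set, which had both, is not in this count, where the brighter one stands for Asph. All 10 differences were above 0, against 57.7% of probe sets (42.3% were below 0), from 0.04 in Pln and Atp2a2 to 0.41 in Slc8a1, with a median of 0.21 against 0.04 over all probe sets. Without Col4a3-/- replicate 3 the median was 0.10, and over all 18 other settings that gave it the lowest median was 0.020. This comparison and the previous one share the Col4a3-/- hearts, so their opposite signs are not separate observations. Col4a3-/- replicates 1 and 3 had low atrial markers and the female pattern of Xist. No Col4a3-/-OPN-/- heart had such low atrial markers, and only replicate 2 of that genotype had the female pattern. The added loss of osteopontin therefore cannot be told apart here from atrial content or the mix of sexes.

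Col4a3-/-OPN-/- and wild type hearts were compared as the pair whose means use no Col4a3-/- array. The SE, intervals and p-values still came from the fit of all arrays, which pools the spread of every genotype. They therefore depend on the Col4a3-/- hearts as well. Casq2 had an SE of 0.21 both in this pair and in Col4a3-/- against wild type. Its SD was 0.14 in Col4a3-/-OPN-/-, 0.10 in wild type and 0.52 in Col4a3-/- hearts. Here too 0 of 10 genes were called (0% of probe sets), and 0 had an unadjusted p under 0.05 (3.68%) or separated groups (13.2%), again with the dimmer Asph probe set, which had both, left out. Differences were above 0 in 7 genes and below 0 in 3 (against 53.1% and 46.9% of probe sets), between -0.10 in Casq2 and 0.22 in Hrc, with a median of 0.02 against 0.01 over all probe sets. Of the 10 intervals, 6 lay within 0.5 of 0. A moderated F-test for any difference among the genotypes called 0 of 10 genes, against 0.0147% of probe sets. Its smallest unadjusted p was 0.108 (Casq2) over the 10 probe sets that stand for the genes, and 0.008 (adjusted p = 0.356) at the dimmer Asph probe set.

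Hearts also differed within genotypes. The SD over 3 hearts was largest in Col4a3-/- for 9 of 10 genes, against 60.9% of all tested probe sets; Hrc, widest in wild type hearts, was the exception. The median SD of the 10 genes was 0.29 in Col4a3-/-, 0.14 in wild type and 0.15 in Col4a3-/-OPN-/- hearts, beside 0.21, 0.12 and 0.14 over all probe sets. The farthest single value from its wild type mean was -1.06 log2 units, Casq2 in Col4a3-/- replicate 3.

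Col4a3-/- replicate 3 held the lowest of the 9 values for 6 genes (Pln, Casq2, Slc8a1, Camk2d, Jph2 and Asph), whereas it was the lowest heart at 26.1% of all probe sets. The median of the 10 genes, each taken from its wild type mean, was -0.46 in that heart, -0.07 and 0.03 in Col4a3-/- replicates 1 and 2, and between -0.10 and 0.17 in the other 6 hearts. Cardiomyocyte markers were mostly low there too: their median deviation was -0.32 in Col4a3-/- replicate 3, with 13 of 14 below the wild type mean, and between -0.03 and 0.04 in the other 8 hearts. In wild type replicate 2 and Col4a3-/- replicate 2, 9 of 14 were below it. The fall in Col4a3-/- replicate 3 was uneven. Mybpc3 (10.3) and Actc1 (12.2) lay below all other hearts, Mb (12.32) lay among the wild type values, and Tnnt2 (13.04) was at its highest. The mean of the fibroblast markers was also low in Col4a3-/- replicate 3, at 7.97 against 8.79 or more elsewhere, but the markers were split. Col1a1, Col1a2, Col3a1, Lum, Postn and Gsn lay below every wild type heart there. Dcn (12.04), Pdgfra (8.91) and Tcf21 (7.25) lay above every wild type heart. The mean of smooth muscle and pericyte markers was low in that heart (7.70), as in all Col4a3-/- hearts. The part of these fibroblast and smooth muscle markers in the result was not tested. With the cardiomyocyte mean as a covariate in the fit, a setting chosen after seeing the data, the median difference of the 10 genes from wild type was 0.0085 in place of -0.19. With the atrial mean as a covariate it was 0.04, with the Y-linked mean -0.015, and with arrays weighted by their quality -0.03. The cardiomyocyte mean itself was 11.1 in Col4a3-/- replicate 3 and between 11.5 and 11.7 in the other 8 hearts. Without that heart, and with no covariate, the median difference was -0.04. The causes of these shifts were not tested.

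**Figure D4:**
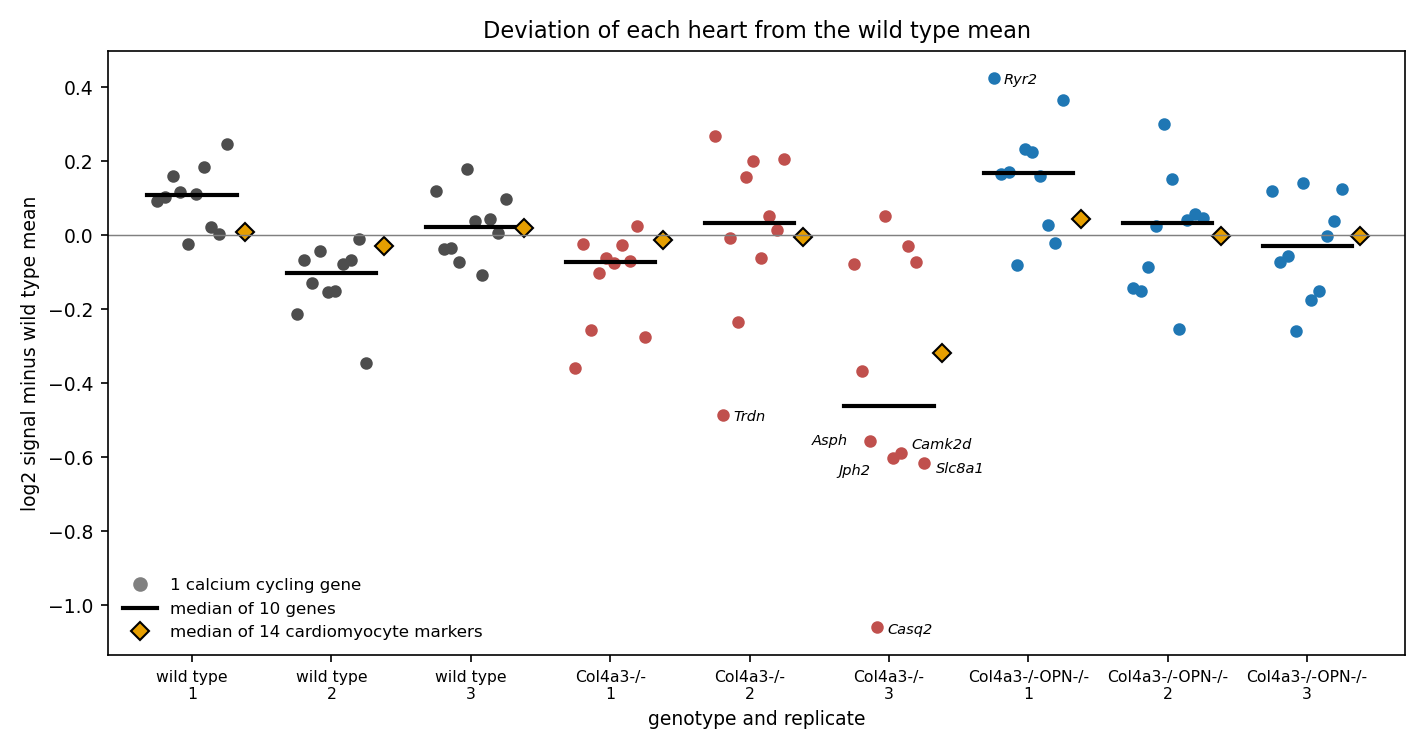
Deviation of each of 10 calcium cycling genes from its wild type mean (log2 units, vertical axis) in each of 9 hearts; black bars give the median of the 10 genes, and diamonds the median of 14 cardiomyocyte markers. Col4a3-/- replicate 3 has the lowest medians of both (-0.46 and -0.32), and Casq2 is its lowest gene at -1.06.

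At the other end, Col4a3-/-OPN-/- replicate 1 held the highest value for 5 genes (Ryr2, Trdn, Slc8a1, Jph2 and Asph), being the highest heart at 15.8% of all probe sets, and its median deviation was 0.17. Asph lay closest to the group's median profile over the 9 hearts (root mean square distance 0.056 log2 units, brighter probe set), followed by Camk2d (0.106) and Jph2 (0.118). Casq2 (0.212) and Ryr2 (0.190) lay farthest from it. Among 7837 probe sets outside the calcium lists that varied at least as much as that profile, the 5 closest to it were Cpt1c (0.049), Lrtm1 (0.052), Exoc1 (0.058), Mdn1 (0.060) and Nebl (0.061), the last encoding nebulette, a Z-disc protein of the cardiac sarcomere. All share the same 9 arrays, so this closeness includes whatever made whole arrays differ.

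Other genes of calcium handling were grouped by role in lists of 80 genes, of which 65 were tested. Limma called 0 of 65 in each of the 3 comparisons; at an unadjusted p under 0.05 there were 5 in Col4a3-/- against wild type, 7 in Col4a3-/-OPN-/- against Col4a3-/- and 2 in Col4a3-/-OPN-/- against wild type, against 8.35%, 13.6% and 3.68% of all probe sets. Their median differences were -0.07, 0.10 and -0.0035. Of the others, 10 were not analysed here, and 5 were below the level for testing, among them Fkbp1b, whose protein binds the release channel, and the channels Ryr1 and Ryr3.

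Among regulators of the pump and proteins of the store's lumen (11 tested, 9 below 0 in Col4a3-/- against wild type), Sln was lowest. Sarcolipin, its product, inhibits SERCA and in the heart is mostly atrial. Sln was at 11.4, 11.7 and 11.7 in wild type, 9.99, 11.3 and 10.4 in Col4a3-/- and 11.1, 11.5 and 11.4 in Col4a3-/-OPN-/- hearts, low in the same Col4a3-/- replicates 1 and 3 whose atrial markers were low. Its difference was -1.01 (SE 0.28, limma adjusted p = 0.442) from wild type and 0.73 (SE 0.28, adjusted p = 0.306) for Col4a3-/-OPN-/- against Col4a3-/-. Without Col4a3-/- replicate 2 these were -1.40 (adjusted p = 0.0315) and 1.12 (adjusted p = 0.0483), both past the threshold, in a setting that called 0.044% and 0.161% of all probe sets. That setting keeps only the Col4a3-/- hearts with low atrial markers and the female pattern of Xist, against wild type hearts of the male pattern. The highest of this list from wild type in Col4a3-/- hearts was Tmem38b (0.48), a potassium channel of the store, which had the lowest difference in Col4a3-/-OPN-/- against Col4a3-/- (-0.23) and the highest in Col4a3-/-OPN-/- against wild type (0.25), where Calr, the calcium buffer calreticulin, was lowest (-0.30).

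At the release channel (6 tested), Akap6 and Mypn were the furthest apart. Akap6, an anchor that places kinases near the release channel, was at 8.69, 8.59 and 8.62 in wild type, 8.12, 8.45 and 7.77 in Col4a3-/- and 8.97, 8.75 and 8.62 in Col4a3-/-OPN-/- hearts. All 3 Col4a3-/- hearts lay below all 6 others, with differences of -0.52 (SE 0.17, limma adjusted p = 0.496) from wild type and 0.67 (SE 0.17, adjusted p = 0.178) for Col4a3-/-OPN-/- against Col4a3-/-. Such separation was seen at 12.5% and 16.5% of all probe sets in these comparisons. Of the 65 genes, Fkbp1a, Lrrc10, Orai3, Pde4d, Prkaca, Sln, Smdt1 and Vdac1 also separated Col4a3-/- from wild type hearts. In Vdac1, too, all 3 Col4a3-/- hearts lay below all 6 others. In Fkbp1a all 3 lay above all 6 others, narrowly (7.44 or higher, against 7.42 or lower). Mypn, which encodes the sarcomere protein myopalladin, was listed here beside the release channel. It had the smallest adjusted p of the 65 genes in Col4a3-/-OPN-/- against Col4a3-/- (0.51, SE 0.13, limma adjusted p = 0.168). These groups did not overlap in Mypn, as at 16.5% of all probe sets. Mypn was the highest of its list in Col4a3-/-OPN-/- against wild type (0.28, unadjusted p = 0.0476, adjusted p = 0.999). Fkbp1a, whose protein binds ryanodine receptors, was highest in Col4a3-/- against wild type (0.12) and lowest in both comparisons of Col4a3-/-OPN-/- hearts, against Col4a3-/- (-0.26) and against wild type (-0.15).

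At the surface membrane and the junction with it (11 tested), Speg, a kinase of the junction, was lowest in Col4a3-/- against wild type (-0.38) and highest in Col4a3-/-OPN-/- against Col4a3-/- (0.48, unadjusted p = 0.0424, limma adjusted p = 0.356). Cav3, the muscle caveolin, had the opposite pattern (0.52 and -0.35), with its highest value, 8.42, in Col4a3-/- replicate 3. Lrrc10, a cardiac leucine-rich repeat protein, was lowest in Col4a3-/-OPN-/- against wild type (-0.15), and Cacnb2, an L-type channel subunit, was highest (0.25). In Col4a3-/- against wild type, Lrrc10 had the smallest adjusted p of this list (-0.34, unadjusted p = 0.0191, limma adjusted p = 0.506). Those groups did not overlap in Lrrc10, as at 12.5% of all probe sets. In this list 8 of 11 genes were below 0 in Col4a3-/- against wild type and 9 above 0 in Col4a3-/-OPN-/- against Col4a3-/-.

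Of 17 kinase and phosphatase genes, 9 were below 0 in Col4a3-/- against wild type, from Prkaca, the catalytic subunit of protein kinase A (-0.31, limma adjusted p = 0.554), to the phosphatase gene Ppp1ca (0.16). In Col4a3-/-OPN-/- against Col4a3-/- they ran from Ppp1cc, another catalytic subunit of protein phosphatase 1 (-0.36), to Prkacb (0.24), and in Col4a3-/-OPN-/- against wild type from Ppp1cc (-0.26) to the adenylyl cyclase gene Adcy6 (0.26). Among 12 other pumps, exchangers and release channels, the lowest and highest were Orai3 (-0.25) and Atp2a3 (0.19) in Col4a3-/- against wild type. They were Atp2a1 (-0.23) and Atp2b4 (0.43) in Col4a3-/-OPN-/- against Col4a3-/-, and Atp2b2 (-0.18) and Atp2a3 (0.49) in Col4a3-/-OPN-/- against wild type. Atp2a3, which encodes the pump SERCA3 of non-muscle cells, was higher without overlap in Col4a3-/-OPN-/- than in wild type hearts (unadjusted p = 0.00967, limma adjusted p = 0.999). Groups without overlap were seen at 13.2% of all probe sets in that comparison. Of 8 genes of mitochondrial calcium uptake, 7 were below 0 in Col4a3-/- against wild type, with the uniporter pore gene Mcu lowest (-0.29) and its regulator Smdt1 highest (0.14). Smdt1 was lowest (-0.05) and Mcu highest (0.25) in Col4a3-/-OPN-/- against Col4a3-/-, and Micu2 lowest (-0.21) and Smdt1 highest (0.09) in Col4a3-/-OPN-/- against wild type.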

How the data were processed

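RNA from 9 snap-frozen hearts was measured on 1 array each. The authors deposited log2 signals, 1 per probe set and array, and the submitters' processing notes name RMA, which corrects background, equalizes the arrays' distributions and summarizes probes. No version is named. A small RNA labelling kit stands in the labels although the annotation is that of a whole-transcript gene array, so the labelling is uncertain. The number of arrays limits precision.

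Of 33793 probe sets, 23521 had 1 gene symbol, 1814 several and 8458 were not listed. Probe sets with 1 symbol and a mean above 5.21, the median over all, were tested (13650). Gene identifiers gave current symbols through a RefSeq table (GRCm38.p6), which held 13586 of those tested. Labels do not say whether hearts of a genotype came from separate litters, and p-values measure the spread between these hearts. The limma fit (3.58.1, R 4.3.3) used an intensity trend and no covariate, and was checked on simulated data. Where a gene had several probe sets, the brightest stood for it. The genes, lists and tests were chosen with earlier results of these data known. In the companion lists the highest and lowest gene of each comparison are named. Genes whose Col4a3-/- and wild type hearts did not overlap are named as well. Mypn, Akap6, Sln, Atp2a3 and Lrrc10 have values beyond that rule because they stood out. Same-numbered hearts deviated together in no regular way (r from -0.194 to 0.230 over 9 pairs), so the numbers were not taken as pairs. Alternatives were other scalings, filters, moderation and weights, the arrays compared alone, a replicate block, covariates and each array left out.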

Additional observations from a re-analysis of the deposited data

How the results depend on the processing

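No member was called in any of the 22 other settings, in any comparison. Of the member differences in these settings, 670 kept their sign and 53 did not. Many of the 670 could not change. Other filters, other moderation, the arrays compared alone and the replicate block leave a log2 difference as it is. So does leaving out an array of the genotype not compared. With 3 hearts a genotype, differences of a size seen here could go uncalled, and none of these sign changes concerns a called value. The log2 differences that changed sign were as follows. After renewed quantile normalization, Trdn had 0.0067 and Asph -0.012 in Col4a3-/-OPN-/- against wild type, and with centred arrays Trdn had 0.0039. With array weights, Ryr2 had 0.056, Atp2a2 0.0080, Pln 0.0027 and Jph2 0.0025 in Col4a3-/- against wild type, and Asph -0.010 in Col4a3-/-OPN-/- against wild type. With the Y-linked covariate, Ryr2 had 0.27, Atp2a2 0.0076 and Slc8a1 0.081 in Col4a3-/- against wild type, and Camk2d 0.0013 in Col4a3-/-OPN-/- against wild type. With the atrial covariate, Col4a3-/- against wild type gave 0.29 for Ryr2, 0.057 for Atp2a2, 0.017 for Pln, 0.19 for both Slc8a1 and Jph2 and -0.10 for the dimmer Asph probe set, and Col4a3-/-OPN-/- against Col4a3-/- gave -0.11 for Ryr2, -0.025 for Atp2a2 and -0.076 for Jph2. With the cardiomyocyte covariate, added after seeing the data, Col4a3-/- against wild type gave 0.048 for Ryr2, 0.0044 for Atp2a2, 0.013 for Pln, 0.049 for Slc8a1 and 0.11 for Jph2, Col4a3-/-OPN-/- against Col4a3-/- gave -0.042 for Casq2, -0.16 for Camk2d and -0.14 for Jph2, and Col4a3-/-OPN-/- against wild type gave -0.028 for Jph2 and -0.057 for Asph.

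The median difference of the 10 genes in Col4a3-/- against wild type was 0.037 with the atrial and 0.0085 with the cardiomyocyte covariate, against -0.19. With each array left out in turn it ran from -0.26 to -0.04, and that of Col4a3-/-OPN-/- against Col4a3-/- from 0.10 to 0.29. Over all 18 other settings that gave it, the median of Col4a3-/-OPN-/- against Col4a3-/- ran from 0.020 to 0.29. Single genes that changed sign with an array left out ranged, in Col4a3-/- against wild type, from -0.22 to 0.095 (Ryr2), -0.049 to 0.011 (Atp2a2), -0.029 to 0.019 (Pln), -0.34 to 0.063 (Jph2), -0.028 to 0.14 (Hrc) and -0.021 to 0.22 (dimmer Asph probe set). Camk2d ranged from -0.038 to 0.24 in Col4a3-/-OPN-/- against Col4a3-/-. In Col4a3-/-OPN-/- against wild type the ranges were -0.010 to 0.27 (Ryr2), -0.011 to 0.045 (Atp2a2), -0.11 to 0.047 (Trdn), -0.20 to 0.010 (Camk2d), -0.010 to 0.19 (Jph2) and -0.071 to 0.090 (Asph). Called companion genes numbered 0 to 1 in both comparisons with Col4a3-/- hearts, the 1 being Sln. The cause of these shifts was not tested. The replicate block changed no call, with 0 members called. Each replicate number holds 1 heart of each genotype, so the block could not change the medians (-0.19, 0.21 and 0.02).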
